A study of Homo sapiens with 6 samples.

Results

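BMF and MCL1 are 2 members of the BCL2 family with opposing roles in cell death, and they were followed here on 6 arrays of MM.1S, an established human multiple myeloma cell line. Both were chosen by symbol from 14884 genes with a named probe set, with 2 probe sets for BMF and 1 for MCL1. The choice was made with their difference between these same groups in view, so the values of both genes in this comparison are given as a description without a test. The cells of 3 arrays were cultured for 12 h with 10 µM ATRA, or all-trans retinoic acid, a vitamin A derivative that binds and activates the retinoic acid receptors, and those of the other 3 for 12 h with the solvent DMSO. Every sample, DMSO ones included, had first been exposed for 1 h to Cfz, short for the proteasome inhibitor carfilzomib. Cells without Cfz were not analysed here, so all differences are between cells that had the drug pulse. MM.1S is 1 line, and separate cultures are not named in the labels, so p-values measure only the spread between these samples, which may be technical.

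The BCL2 family decides whether the outer membrane of mitochondria is opened, the step that releases cytochrome c and starts the caspases. The effectors BAX and BAK1 form the pores, anti-apoptotic members such as MCL1 hold them and their activators in check, and BH3-only members such as BMF bind the groove of the anti-apoptotic proteins and relieve that restraint. Plasma cells and many myelomas depend on MCL1, a short-lived protein removed by the proteasome, whereas BMF is known for its binding to a dynein light chain and its release upon loss of attachment and other stress.

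Retinoic acid receptors bind pairs of a 6-letter motif close to AGGTCA, so the promoters of BMF are shown for the motifs they hold. RefSeq on the build GRCh38.p14 gives BMF 2 transcription starts on the minus strand of chromosome 15, 1913 bases apart, and the stretch from 250 bases before to 50 bases after each start is printed 5′ to 3′. Capitals mark every match, on either strand, to the receptor motif AGGTCA or one of its variants, which are GGGTCA as well as AGTTCA and also GGTTCA. They also mark the CCAAT box, the GC box written GGGCGG and the FOXO factor motif GTAAACA.
BMF start 1, chr15:40108830-40109129, minus strand: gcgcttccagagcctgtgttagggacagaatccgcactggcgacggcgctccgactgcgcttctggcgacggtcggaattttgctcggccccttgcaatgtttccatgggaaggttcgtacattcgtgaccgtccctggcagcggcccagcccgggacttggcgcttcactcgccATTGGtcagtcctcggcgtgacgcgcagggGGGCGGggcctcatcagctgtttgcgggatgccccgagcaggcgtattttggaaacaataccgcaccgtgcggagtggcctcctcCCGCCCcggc
BMF start 2, chr15:40106917-40107216, minus strand: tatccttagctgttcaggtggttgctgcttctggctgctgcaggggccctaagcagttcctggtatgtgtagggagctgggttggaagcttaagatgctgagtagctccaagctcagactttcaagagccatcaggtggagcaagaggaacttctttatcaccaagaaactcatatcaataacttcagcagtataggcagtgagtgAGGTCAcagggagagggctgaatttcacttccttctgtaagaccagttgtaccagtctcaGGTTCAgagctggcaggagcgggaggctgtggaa
The stretch at start 1 holds 1 CCAAT match, on the opposite strand, and 2 GGGCGG matches, 1 of them on the opposite strand. It holds none of the 4 receptor motifs. That at start 2 holds AGGTCA beginning 44 bases before the start and GGTTCA beginning 16 bases after it, both on the strand of the gene. Of 35116 stretches of the same length in RefSeq, 13.8% hold AGGTCA, 8.62% GGTTCA and 38.6% at least 1 of the 4 receptor motifs, so single matches are common. Pairs in direct repeat with 1, 2 or 5 bases between them are found in 0.131%, 0.0399% and 0.0883% of stretches and in 0 of the 2 of BMF. CCAAT is found in 34.6%, GGGCGG in 45.0% and GTAAACA in 3.42% of all stretches. A match describes the letters and says nothing of binding in these cells, and the arrays do not tell the starts apart.

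With ATRA both messages were higher. Read from its brighter probe set, the BH3-only member BMF was higher by more than the anti-apoptotic MCL1. That did not hold for the other BMF probe set (a difference of the changes of -0.45) or for both averaged (-0.019). BMF had intensities of 245, 224 and 254 on ATRA arrays 1 to 3, against 112, 101 and 112 on DMSO arrays 1 to 3, by the brighter of its probe sets. The lowest ATRA value was 2.00 times the highest DMSO value, so the groups were far from touching. The means were 241 ± 15.2 with ATRA and 108 ± 6.43 with DMSO (SD, n = 3 each), a 2.22-fold difference or 1.15 on the log2 scale (SE 0.097). In bulk RNA a higher level in each cell and a larger share of cells with the message cannot be told apart.

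MCL1 had intensities of 907, 887 and 996 on ATRA arrays 1 to 3, against 548, 548 and 572 on DMSO arrays 1 to 3. Here too every ATRA array lay above every DMSO array, the closest pair being 1.55-fold apart and the widest 1.82-fold. The means were 930 ± 58.0 with ATRA and 556 ± 13.9 with DMSO (SD, n = 3 each), 1.67-fold or 0.74 on the log2 scale (SE 0.091). ATRA array 3 was the highest array for both genes, and the spread of MCL1 was wider with ATRA than with DMSO. Ranked by log2 difference over all 14884 genes, BMF stood 54th from the top and MCL1 171st. Groups did not overlap for 24.7% of all genes, 9.86% of genes with all ATRA arrays higher, and 3.80% of all genes passed an adjusted p of 0.05. Nothing is read from these shares for the 2 genes, since the same contrast chose them.

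**Figure D1:**
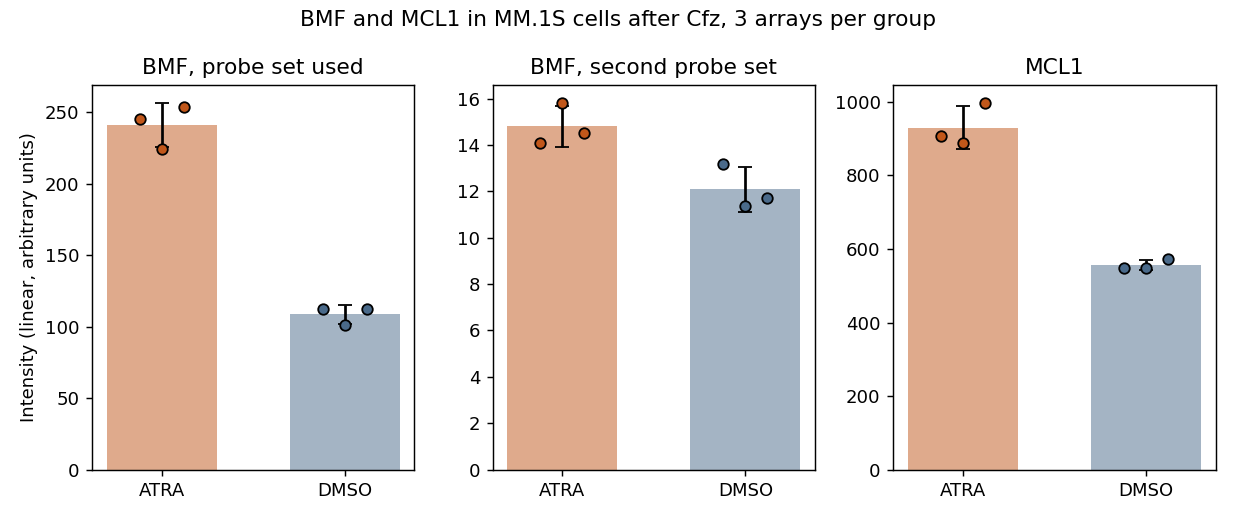
Intensity of BMF by each of its probe sets and of MCL1 in ATRA and DMSO samples (linear axes starting at 0, arbitrary units). Bars are means, error bars SDs, points the 3 arrays of a group; for all 3 probe sets every ATRA point lies above every DMSO point, by a small margin for the second BMF probe set.

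Set against its own DMSO mean on the log2 scale, BMF stood at 1.18, 1.05 and 1.23 on ATRA arrays 1 to 3, against 0.048, -0.10 and 0.052 on DMSO arrays 1 to 3. MCL1 stood at 0.71, 0.67 and 0.84 on ATRA arrays 1 to 3, against -0.020, -0.021 and 0.041 on DMSO arrays 1 to 3. The change of BMF exceeded that of MCL1 on each ATRA array, by 0.47, 0.37 and 0.39. The mean excess was 0.41, a BMF to MCL1 ratio 1.33 times that in DMSO samples, with an SD of 0.052 with ATRA and 0.075 with DMSO. This compares changes within arrays, not levels of the 2 messages, since probe sets differ in brightness for the same amount of RNA.

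**Figure D2:**
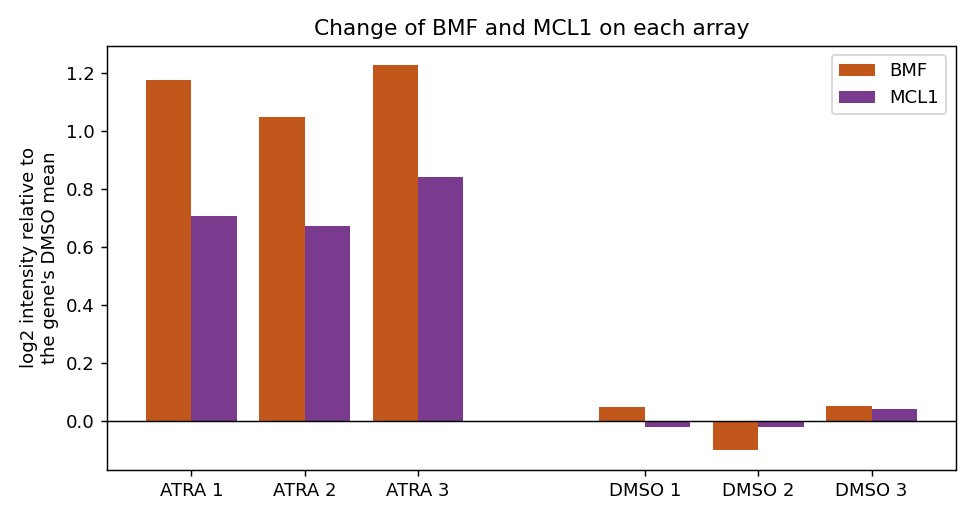
Log2 intensity of BMF (brighter probe set) and MCL1 on each array, relative to the mean of the same gene over the DMSO arrays. On ATRA arrays BMF lies between 1.05 and 1.23 and MCL1 between 0.67 and 0.84, while the DMSO arrays lie between -0.10 and 0.052.

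The order of the 2 changes depends on which BMF probe set is read. The second probe set had intensities of 14.1, 15.8 and 14.5 on ATRA arrays 1 to 3, against 13.2, 11.4 and 11.7 on DMSO arrays 1 to 3. The groups did not overlap, but the closest pair was only 1.07-fold apart. Its means were 14.8 ± 0.896 with ATRA and 12.1 ± 0.971 with DMSO (SD, n = 3 each), 1.23-fold or 0.29 on the log2 scale (SE 0.10). With this probe set the change of BMF minus that of MCL1 was -0.45, and with both probe sets averaged, where BMF differed by 0.72, it was -0.019.

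The dim probe set sat near the floor of these arrays. The median intensity of an array over all 53617 probe sets was 9.40 to 9.76, and that of 15 measured markers of T cells, monocytes, fibroblasts, epithelium and other cells foreign to the line was 10.9. Probe set numbers on this array follow the chromosome and the strand of the genes, and the position of this one in that order is unusual. The 10 named probe sets around it in that order, as many before as after, are all of chromosome 15. Of these, 9 belong to genes on the plus strand, whereas BMF is on the minus strand. For the brighter probe set 8 of the 10 around it belong to genes on the strand of BMF. Among 11004 named probe sets placed this way, 96.3% had most of the 10 around them on the strand of their own gene. For 304 (2.76%) at most 2 of the 10 were on that strand. Those 304 had a median intensity of 11.7, against 23.3 for the other 10700. The sources used here do not give the strand each probe set reads, and whether the dim one reads RNA of BMF or of the opposite strand was not tested.

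The measured genes beside the 2 loci were read in the same fit. Among measured genes, BMF lies between SRP14-DT and BUB1B, a mitotic checkpoint kinase, with SRP14, a subunit of the signal recognition particle, and ANKRD63 as the next ones out. Their log2 differences were 0.17, -0.094, -0.033 and 0.18, with adjusted p of 0.694, 0.662, 0.932 and 0.515 (limma, Benjamini-Hochberg over all genes). MCL1 lies between ADAMTSL4 and ENSA, which encodes a phosphatase inhibitor of mitosis, with FALEC and GOLPH3L as the next ones out. The log2 differences, in that order, were -0.18, 0.0064, 0.24 and 0.30. Of these 8 neighbours 0 passed in limma's test and 1 had an unadjusted p under 0.05, where 3.80% and 17.9% of all genes did, so these counts are near those of any 8 genes. The 1 was GOLPH3L (adjusted p = 0.189), at 261 ± 20.2 with ATRA and 211 ± 15.4 with DMSO (SD, n = 3 each). It was also the 1 neighbour whose groups did not overlap, as 24.7% of all genes did not.

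Genes with the most similar profile were sought among 11915 other protein-coding genes, by the root mean square distance of their log2 values, each relative to the DMSO mean of the gene, over the 6 arrays. The nearest to BMF were MAP3K5 (distance 0.067), the kinase ASK1 of the stress-activated kinase cascade, RASSF2 (0.083), which encodes a RAS-association domain protein, and UBE2G1 (0.094), a ubiquitin-conjugating enzyme. MAP3K5 averaged 83.4 ± 2.79 in ATRA samples, against 38.0 ± 4.17 in DMSO samples, and RASSF2 averaged 662 ± 13.6 in ATRA samples, against 309 ± 9.09 in DMSO samples (SD, n = 3 each). The nearest to MCL1 were SOAT2 (0.084), a cholesterol-esterifying enzyme, HEY2 (0.090), a transcription factor of the Notch pathway, and SDC1 (0.090), the plasma cell surface proteoglycan CD138, at 1366 ± 9.02 with ATRA and 761 ± 22.4 with DMSO. BMF and MCL1 were 0.29 apart by the same measure. Genes with differences of the same size are near by construction, so the list names genes of like change only.

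The other BCL2 family genes lay between -0.58 and 0.46 on the log2 scale. Of 22 other listed members 19 were measured, and 0 rose and 0 fell past an adjusted p of 0.05 in limma's test, where 3.80% of all genes passed. At an unadjusted p under 0.05 there were 5 of 19, where 17.9% of all genes were, and groups did not overlap for 6 (31.6%), where 24.7% of all genes did not. The median log2 difference of the 19 was -0.11, against -0.015 for all genes.

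Of the 4 other anti-apoptotic members measured, 0 had all ATRA arrays above the DMSO arrays, as 9.86% of all genes did, and 4 genes are too few to read anything from that. BCL2L1, which encodes BCL-XL, had intensities of 725, 729 and 699 on ATRA arrays 1 to 3, against 1012, 963 and 874 on DMSO arrays 1 to 3. The groups did not overlap, with DMSO the higher, and the log2 difference was -0.40 (SE 0.094, adjusted p = 0.0698). BCL2, the founding member and target of venetoclax, was at 426 ± 36.7 with ATRA and 377 ± 43.7 with DMSO (SD, n = 3 each), with overlapping groups and a difference of 0.18 (SE 0.12, adjusted p = 0.503). BCL2A1 and BCL2L10 were below 10 in mean in both groups, a level at which small changes cannot be judged.

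The 2 pore-forming effectors lay on opposite sides of 0. BAX had intensities of 75.0, 88.3 and 75.8 on ATRA arrays 1 to 3, against 102, 123 and 133 on DMSO arrays 1 to 3. Every ATRA array was below every DMSO array, and the log2 difference of -0.58 (SE 0.13) had an adjusted p of 0.0600. BAK1 had intensities of 547, 602 and 535 on ATRA arrays 1 to 3, against 369, 428 and 426 on DMSO arrays 1 to 3. Here all ATRA arrays were the higher, at 0.46 (SE 0.10, adjusted p = 0.0599). BAK1 is the effector that MCL1 is known to hold directly. BOK, a related effector, was at -0.32 (SE 0.21, adjusted p = 0.491), with overlapping groups.

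BAX, BAK1 and BCL2L1 lay close to the threshold, and several settings decide their calls. With the dimmer 25% of genes left out, their adjusted p were 0.0462, 0.0423 and 0.0465, and with the dimmer 50% left out 0.0239, 0.0195 and 0.0199. With protein-coding genes alone, chosen after the data were seen, all 3 passed as well. With trend and robust eBayes on the same genes they were 0.00944, 0.00115 and 0.000565. BAK1 also passed with cyclic loess (0.0375) and quantile normalization (0.0412), where BCL2L1 was at 0.107 and 0.101. With 1 array left out, all 3 lay between 0.0609 and 0.192 and kept the sign of their difference.

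BH3-only genes other than BMF did not pass either. BCL2L11, which encodes BIM, an activator of BAX and BAK1 that MCL1 binds, had intensities of 99.1, 109 and 89.2 on ATRA arrays 1 to 3, against 78.0, 78.1 and 76.0 on DMSO arrays 1 to 3. The groups did not overlap, and the difference was 0.35 (SE 0.10, adjusted p = 0.124), with 0.0423 when the dimmer 50% of genes were left out and 0.116 to 0.276 with 1 array left out. PMAIP1, which encodes NOXA, the BH3-only partner that favours MCL1, varied widely between arrays, at 53.2 ± 13.9 with ATRA and 40.6 ± 9.20 with DMSO (SD, n = 3 each). Its difference of 0.38 (SE 0.24, adjusted p = 0.472) was about as large as that of BCL2L11 but with overlapping groups. BBC3, which encodes the p53 target PUMA, lay at 0.20, BAD at -0.11, BID, the substrate of caspase 8, at -0.19 and BIK at -0.22, with adjusted p between 0.366 and 0.720 for these 4. HRK was not analysed here.

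Of the other family members and BH3-like proteins, BNIP3L, a mitophagy receptor, was at 171 ± 15.5 with ATRA and 134 ± 10.5 with DMSO (SD, n = 3 each), a difference of 0.36 (SE 0.11, adjusted p = 0.139) without overlap. BCL2L12, BCL2L13, BCL2L14, BCL2L15 and BNIP3 lay between -0.14 and 0.038 with overlapping groups, and the signs of BCL2L14, BCL2L15 and BNIP3 turned with the array left out.

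**Figure D3:**
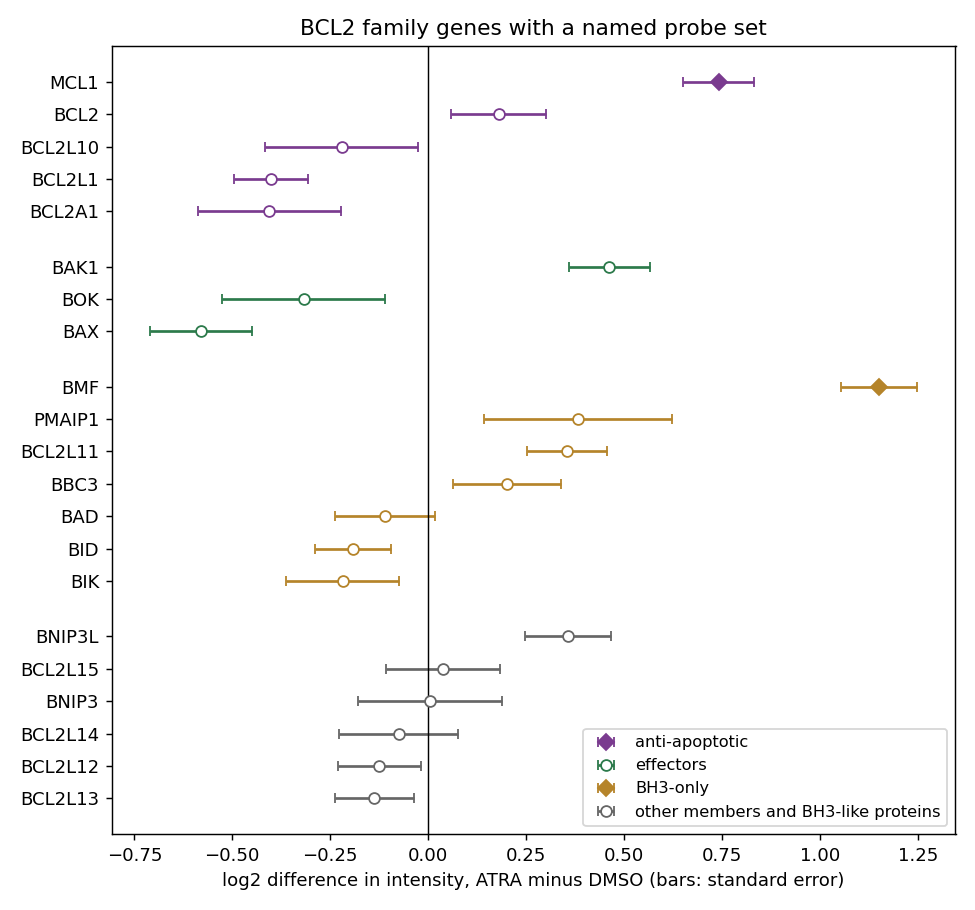
Log2 difference in intensity, ATRA minus DMSO, of the BCL2 family genes with a named probe set, grouped by role. Error bars are limma's standard error of the difference, which draws on the variance of all genes, with 3 arrays per group. Filled diamonds are MCL1 (0.74) and BMF (1.15), and the open circles of the other 19 members lie between -0.58 (BAX) and 0.46 (BAK1).

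Genes known to act on BMF or MCL1, or next to them in the death pathway, were read from 5 lists. The lists hold 58 genes, of which 32 were measured. In these lists 0 genes rose and 1 fell (limma, adjusted p under 0.05), where 1.73% of all genes rose and 2.07% fell, and 9 of the 32 had an unadjusted p under 0.05, where 17.9% of all genes did; the same share is the background for each list's own count. The median difference was -0.098. Groups did not overlap for 15 of the 32 (46.9%), where 24.7% of all genes did not.

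The 1 that fell was IL6R, the receptor of interleukin 6, a survival factor of myeloma that acts on MCL1 through STAT3. It had intensities of 1452, 1418 and 1231 on ATRA arrays 1 to 3, against 1915, 1968 and 1901 on DMSO arrays 1 to 3. The groups did not overlap, and the log2 difference was -0.50 (SE 0.099, adjusted p = 0.0401). Leaving out any 1 of the 6 arrays ended the call (adjusted p 0.0818 to 0.129), as did cyclic loess normalization (0.0529), while the difference itself stayed at -0.54 to -0.43 and at -0.45. Of the 6 measured genes of this list the other 5 did not pass, with STAT3 itself at 0.045 (228 with ATRA and 221 with DMSO in mean) and SOCS3, the feedback inhibitor of the pathway, at 0.21 (adjusted p = 0.435).

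Of 8 measured genes of MCL1 protein turnover, 7 had a lower mean with ATRA and 0 passed (limma, adjusted p), with 3 at an unadjusted p under 0.05. JOSD1, a deubiquitinase reported to stabilise MCL1, was at 106 ± 6.75 with ATRA and 137 ± 3.50 with DMSO (SD, n = 3 each), a difference of -0.37 (SE 0.092, adjusted p = 0.0775). CDC20, the mitotic activator of the APC/C ubiquitin ligase, was at -0.39 (SE 0.15, adjusted p = 0.218), and GSK3B, a kinase that marks MCL1 for degradation, at -0.29 (adjusted p = 0.168). The median of the list was -0.15, against -0.015 for all genes. The list holds genes that stabilise MCL1 and genes that act in its degradation, so nothing is read from the common direction. USP9X, HUWE1 and FBXW7 were not analysed here, so the best-known regulators of MCL1 stability are missing.

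Of 10 listed partners and regulators of BMF, 6 were measured and 0 passed, with 2 at an unadjusted p under 0.05. The dynein light chain genes DYNLL1 and DYNLL2 were not analysed here, nor were MYO5A and MAPK8. MYO5B, a myosin V motor, was at 162 ± 15.0 with ATRA and 234 ± 24.2 with DMSO (SD, n = 3 each), a difference of -0.53 (SE 0.12, adjusted p = 0.0611) without overlap, and MAPK9, the kinase JNK2, at -0.35 (SE 0.10, adjusted p = 0.135). FOXO3, a transcription factor known to act on BH3-only genes, lay at 0.094 and FOXO1 at -0.20 with overlapping groups.

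The list of caspase activation and its inhibition has 19 genes, but its caspases, CYCS and DIABLO were not analysed here. Of the 9 genes measured 0 passed, with 2 at an unadjusted p under 0.05. CFLAR, which encodes the caspase 8 inhibitor FLIP, came closest. It was at 125, 122 and 126 on ATRA arrays 1 to 3, against 90.8, 97.7 and 80.3 on DMSO arrays 1 to 3. The groups did not overlap, and the difference was 0.47 (SE 0.10, adjusted p = 0.0524). Its adjusted p was 0.0479 and 0.0414 with quantile and cyclic loess normalization, 0.0168 without the dimmer 50% of genes and 0.0109 with trend and robust eBayes, but 0.0651 with arrays shifted to a common median and 0.0813 to 0.146 with 1 array left out. HTRA2, a mitochondrial protease that acts against XIAP, lay at -0.29 (adjusted p = 0.190), and XIAP at 0.029 (adjusted p = 0.941). Of 3 measured genes on the death receptor list, FADD, RIPK3 and MLKL, 0 passed, with 1, RIPK3, at an unadjusted p under 0.05. None of them is a receptor, and FAS, TNFRSF10A, TNFRSF10B and TNFRSF1A were not analysed here. RIPK3 lay at -0.62 (adjusted p = 0.0917), from mean intensities of 9.85 with ATRA and 15.1 with DMSO that are near the array floor, and MLKL, which it activates, at 0.29 (adjusted p = 0.487).

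**Figure D4:**
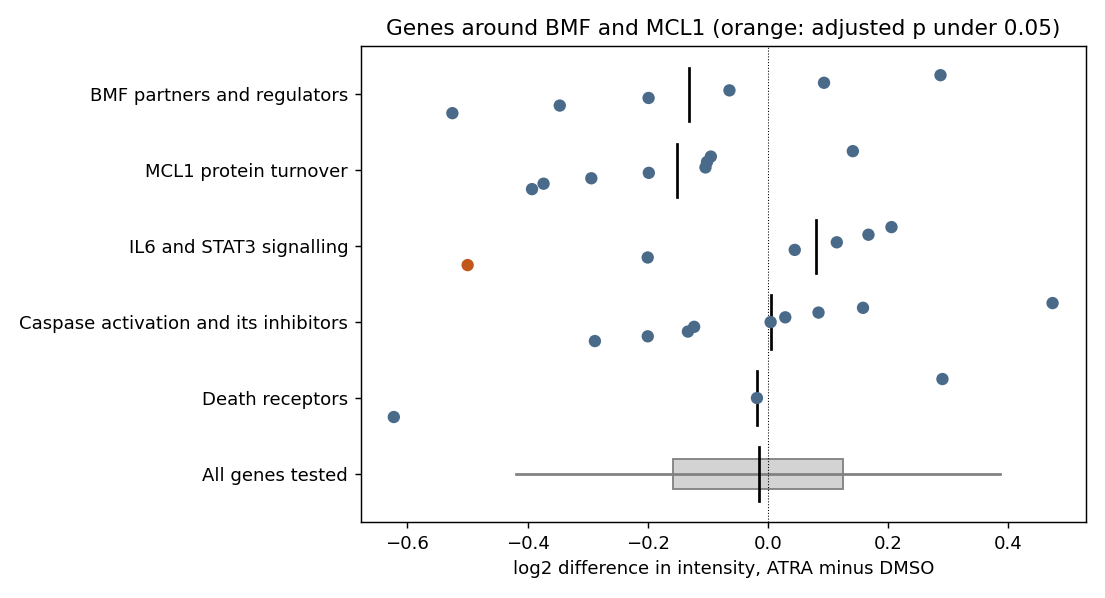
Log2 difference in intensity, ATRA minus DMSO, of each measured gene in 5 lists around BMF and MCL1, with the list median as a black bar. The lowest row gives all 14884 genes (box, quartiles from -0.16 to 0.12; line, 5th to 95th percentile from -0.42 to 0.39), and IL6R in orange is the 1 list gene that passed.

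Over all genes, 257 were higher and 308 lower with ATRA at an adjusted p under 0.05. Across genes, which are no replicates of each other, the log2 values of 2 arrays correlated at 0.990 to 0.992 within a group and at 0.985 to 0.987 between groups. Of 7 measured plasma cell markers, 6, such as SDC1, XBP1, IRF4 and MZB1, were at 314 or higher in mean in both groups. CD27 was dim, at 16.2 with ATRA and 13.9 with DMSO. These levels were not all steady, as 3 of the 7 passed as higher with ATRA and 0 as lower (limma, adjusted p under 0.05). Among all genes, 1.73% and 2.07% did. CD38 averaged 1207 with ATRA and 314 with DMSO. In mean, 5 of the 7 were higher with ATRA and 2 lower. Markers of other cell types were measured for 15 of 25 genes, and their summed intensity was 312 to 333 on ATRA arrays and 313 to 415 on DMSO arrays. KRT18, an epithelial keratin, was the brightest of them, at 136 with ATRA and 154 with DMSO, and the other 14 were at 33.4 or lower in mean in either group.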

How the data were processed

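Total RNA of 6 samples of MM.1S was labelled with biotin by a whole-transcript kit and hybridised to 1-colour arrays, per the labels. The authors deposited a table of intensities for 53617 probe sets, on a linear scale with no value at or below 0. RMA and limma are named, without versions or roles, per the submitters' processing notes; what they did to low values remains in the folds. Each deposited intensity was turned to log2 with no pseudocount.

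Names came from the array's platform annotation, which gave 16098 (30.0%) 1 symbol, 0 several, and left 37519 unnamed here; all 16098 matched RefSeq genes of GRCh38.p14 by Entrez ID. Each of 14884 genes was read from the probe set with the highest mean. limma 3.58.1 in R 4.3.3 (lmFit, eBayes, no block, two-sided, Benjamini-Hochberg over all genes) gave tests and standard errors, and SDs are over 3 arrays. Simulated data of 14884 genes had 200 changed ones. Of those changed by 0.5, 1 and 2 (log2), 17.9%, 73.1% and 98.5% were recovered, with 4 false calls. The share and size of true changes in the data are not known, so these rates hold for the simulated setting only.

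Named were both members, all measured BCL2 family genes, from each further list every called gene and the 2 with the largest difference, and the 3 nearest profiles of each member. Further list genes (STAT3, GSK3B, FOXO1, FOXO3, XIAP), the neighbours and the probe set order were added after values were seen. The members and lists were chosen with earlier results of these data known. Replicate numbers were not used to pair the samples in the main fit. Deviations of same-numbered arrays correlated at 0.017 or less. The labels name no shared culture or day, and a low correlation cannot tell whether there was one. Alternatives were other normalizations, filters, eBayes settings, array weights, probe set rules, the replicate block and leaving out each array.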

Additional observations from a re-analysis of the deposited data

How the results depend on the processing

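The difference of MCL1 stayed between 0.69 and 0.79 on the log2 scale under 3 normalizations, with arithmetic means and with each array left out (0.69 to 0.77), and that of BMF between 1.10 and 1.20 (1.10 to 1.20 with each array left out). BMF came to 0.29 with its other probe set and to 0.72 with both averaged. The excess of BMF over MCL1, 0.37 to 0.44 with each array left out, then turned to -0.45 and -0.019, settings chosen after seeing the data. The count of all genes called was 565, and 1327 with trend and robust eBayes, 1143 without the dimmer 50% of genes, 200 with the replicate block and 207 to 317 with 1 array left out, where fewer samples or residual degrees of freedom enter. Other BCL2 family genes called numbered 0, and 4 with trend and robust eBayes (BAK1, BAX, BCL2L1 and BNIP3L), 4 and 3 without the dimmer 50% and 25%, 3 with protein-coding genes alone, 1 (BAK1) with quantile or cyclic loess normalization, 0 with the block and 0 with any 1 array left out. List genes called numbered 1, and 6 with trend and robust eBayes, 5 and 3 without the dimmer 50% and 25%, 3 with protein-coding genes alone, 2 with quantile normalization, 0 with the replicate block and 0 with any 1 array left out. With fewer genes tested the adjustment is over fewer tests; for the other settings the cause was not tested. The block also ended the calls of IL6R (adjusted p = 0.107) and SOAT2 (0.0519), and CFLAR, BAX, BAK1 and BCL2L1 were at 0.137, 0.107, 0.124 and 0.146 with it. Small differences changed sign, BNIP3 to -0.015 with array weights, -0.022 with a common median, -0.016 with cyclic loess, -0.0083 with quantile normalization and -0.16 to 0.18 with 1 array left out, BCL2L14 to -0.16 to 0.066 and BCL2L15 to -0.046 to 0.16 with 1 array left out. Dim probe sets limit what can be said of BCL2A1, BCL2L10, BIK, BNIP3, BCL2L14, BCL2L15 and RIPK3.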
